A study of Homo sapiens with 8 samples.

Results

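The spliceosome genes that are recurrently mutated in myeloid neoplasms were followed in SET-2 cells with and without a guide RNA against ZRSR2. They were taken by symbol, together with the close partners and the relative of U2AF1 that act at the same site: ZRSR2, U2AF1, U2AF2, U2AF1L4, SF1, SF3B1, SRSF2, LUC7L2, PRPF8 and DDX41. These are 10 of the 25435 gene symbols in the count table. All 10 passed the filter on low counts, as did 14898 genes in all. The question was whether loss of ZRSR2 is accompanied by changes in the mRNA of the other factors.

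SET-2 is a human cell line from an essential thrombocythemia that had progressed to megakaryoblastic leukemia, and the series title places it among disease driven by an activating JAK2 mutation. All 8 libraries come from this line, so both genotypes share that background. Cells were transduced with a pLKO5 virus carrying GFP and either a ZRSR2 guide (genotype ZRSR2 KO, 4 libraries) or a non-targeting guide (4 libraries). The design text names another guide against ZRSR2, which is not analysed here. Both genotypes have 2 guides, each present once in experiment 1 and once in experiment 2. Replicates 1 and 2 are guides 1 and 2 in experiment 1, and replicates 3 and 4 are guides 1 and 2 in experiment 2. RNA was taken 20 or 25 days after transduction, 1 day for each biological replicate. Whether the experiment number in the titles is the biological replicate number is not given in the sources used here. Neither is the source of Cas9, whether the cells were sorted or cloned, or whether the guides of 1 experiment were grown as separate cultures. The p-values therefore measure the spread between these libraries, which may in part be technical.

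Introns are removed by a spliceosome that must find the end of each intron, the 3′ splice site. At major, U2-type introns SF1 binds the branch point, U2AF2 binds the pyrimidine tract and U2AF1 reads the AG at the intron's end, after which the U2 particle with SF3B1 takes over the branch point. ZRSR2, a relative of U2AF1, serves the minor, U12-type introns. SRSF2 binds exon sequences that help the choice of a site, LUC7L2 acts with the U1 particle at the 5′ splice site, PRPF8 lies at the catalytic centre, and DDX41 is a DEAD-box helicase. In myeloid neoplasms SF3B1, SRSF2 and U2AF1 carry hotspot mutations, whereas ZRSR2 mutations are mostly inactivating.

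The sequences that define the genotype are the ZRSR2 sites of both guides, shown with the stretch of ZRSR2P1, a close copy of ZRSR2, that is most like each. Capitals in a ZRSR2 site mark the protospacer-adjacent motif that was read, and capitals in the copy mark mismatches to the guide. Positions in a guide count from 1 at its 5′ end.
ZRSR2 guide 1: tgacgtttcccgagaaacca
ZRSR2P1 stretch for guide 1: tgacAtttccAgagaaacca
ZRSR2 guide 2: acagttcctagacttctatgAGG
ZRSR2P1 stretch for guide 2: acagttcctagaTttctatg
On GRCh38 with GENCODE 29, ZRSR2 spans chrX:15790472-15823260 on the plus strand and has 11 exons. Guide 1 matches chrX:15790515-15790534 in the coding part of exon 1, 2 bases before the exon's end. Guide 2 matches chrX:15815821-15815840 in the coding part of exon 8. The copy on chromosome 5 differs from guide 1 by 2 substitutions, G5A and C11A, and is followed by AGC. It differs from guide 2 by 1 substitution, C13T, and is followed by AGG. In the transcripts of the other 9 genes, the closest stretch next to an NGG motif had at least 7 mismatches to either guide. Neither non-targeting guide matched a GENCODE transcript. Editing itself was not measured in these files.

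Library totals ran from 31106042 to 71521173 expected counts, the highest being non-targeting replicate 3. Levels are given as CPM, counts per 1000000 counts of a library after TMM scaling, so that 1 count was worth 0.0143 to 0.0324 CPM. The fewest counts of any member in a library were 391, for LUC7L2. Megakaryocyte and erythroid markers were present, with 12 of 14 at a mean of 5 CPM or more. Of 12 markers of other cell types, 8 had a mean under 1 CPM, among them CD3E and MPO, while LYZ averaged 230.5 CPM and PECAM1 124 CPM.

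ZRSR2 mRNA was lower in every library labelled ZRSR2 KO than in any non-targeting library, and none of the other 9 genes passed the adjusted threshold for genotype in any fit. In the non-targeting libraries ZRSR2 stood at 37.9 and 39.2 CPM in experiment 1 and at 39.7 and 41.1 CPM in experiment 2, with guide 1 first. With ZRSR2 guides it stood at 29.4 and 22.9 CPM in experiment 1 and at 28.3 and 18.7 CPM in experiment 2. The lowest values were those of guide 2 in both experiments. In bulk RNA, fewer cells with ZRSR2 mRNA and less of it per cell cannot be told apart. The KO mean of 24.8 ± 4.99 CPM was 62.9% of the non-targeting mean of 39.5 ± 1.34 CPM (SD, n = 4 each). The log2 fold change was −0.67 (SE 0.15), and edgeR's quasi-likelihood test gave an unadjusted p of 0.00165 and an adjusted p of 1.00 over all genes. In that fit 0 of 14898 genes (0%) had an adjusted p under 0.05, and 89 (0.597%) had an unadjusted p under 0.05. DESeq2 in the same design called 4 genes and gave ZRSR2 an adjusted p of 0.103. With the experiment as a block, a term that removes each experiment's own level, the value was −0.67 (SE 0.13) and the adjusted p 0.275, again with 0% of genes called. In edgeR's test with this block 4.63% of genes had an unadjusted p under 0.05. The fit with genotype alone counts differences between experiments as spread between libraries, which makes its p-values larger for genes that differ between experiments. DESeq2 with the same block called ZRSR2, with an adjusted p of 5.38e-04, as 1 of 31 genes (0.208%). Leaving out 1 library at a time kept that DESeq2 adjusted p between 4.13e-05 and 0.0104, and edgeR's blocked adjusted p between 0.153 and 0.999.

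**Figure D1:**
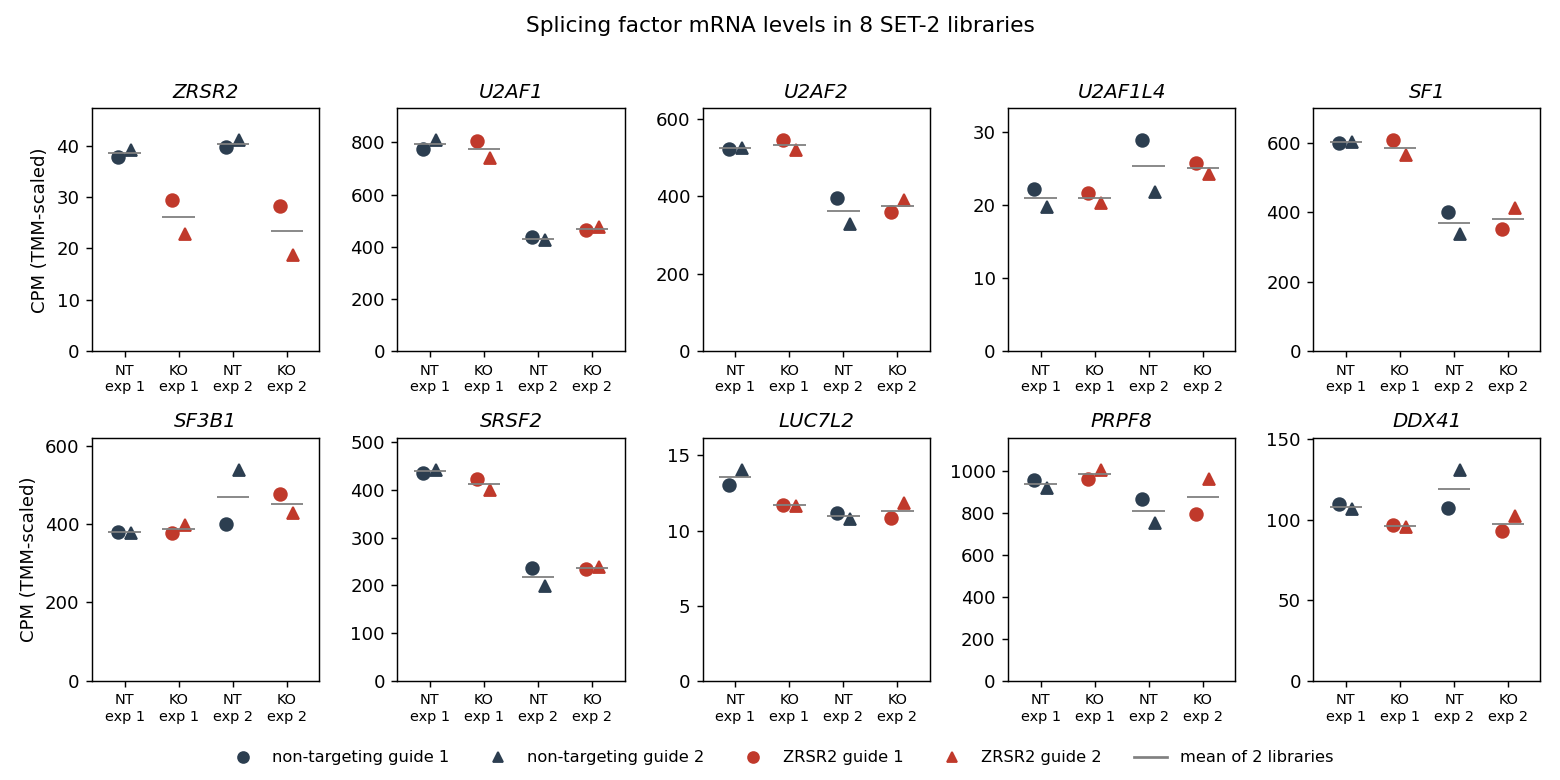
mRNA level of each of the 10 splicing factors in CPM (TMM-scaled, linear axis from 0), by genotype (NT, non-targeting; KO, ZRSR2 guide) and experiment; each point is 1 library, circles are guide 1 and triangles guide 2 of that genotype, and grey lines are means of 2 libraries. ZRSR2 and DDX41 are the genes whose 4 KO points all lie below the 4 NT points, and U2AF1, U2AF2, SF1 and SRSF2 are lower in experiment 2 in both genotypes.

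ZRSR2 mRNA was lower with guide 2 than with guide 1 in both experiments, a difference that did not pass the adjusted threshold. The guide 1 mean was 28.9 CPM (n = 2), or 73.1% of the non-targeting mean. The guide 2 mean was 20.8 CPM (n = 2), or 52.7% of it. The log2 fold changes were −0.45 (SE 0.14) and −0.92 (SE 0.15), and neither passed in edgeR's test without the block (adjusted p 1.00). With the block, guide 2 passed at an adjusted p of 0.0118 (log2 fold change −0.93, SE 0.12), as 1 of 10 genes called (0.0671%), and guide 1 did not (−0.45, SE 0.12, adjusted p 0.999). DESeq2 gave guide 2 an adjusted p of 2.44e-06 without the block and 6.25e-09 with it, and guide 1 an adjusted p of 0.750 with it. The difference between the guides was −0.47 (SE 0.14, unadjusted p 0.00356) with the block, and its adjusted p of 1.00 did not pass. The effect on ZRSR2 was −0.56 (SE 0.18) in experiment 1 and −0.78 (SE 0.18) in experiment 2, with an adjusted p of 1.00 and 0.998. In experiment 2 alone, DESeq2 called ZRSR2 at an adjusted p of 0.0255, as 1 of 13 genes called among 14898. edgeR's test with no count filter called ZRSR2 at an adjusted p of 7.90e-05, as 1 of 116 genes called among 20284. With the main filter, or with at least 10 counts in every library, edgeR called 0 genes in experiment 2. The difference between experiments was −0.22 (SE 0.26, adjusted p 1.00).

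The heterodimer and its relative that read the major 3′ splice site showed no call with genotype. U2AF1, which reads the terminal AG, stood at 775 and 809 CPM in the non-targeting libraries of experiment 1 and at 806 and 739 CPM in the KO libraries. In experiment 2 it stood at 436 and 427 CPM in the non-targeting libraries and at 463 and 475 CPM in the KO libraries. Genotypes overlapped in experiment 1, and both KO libraries were the higher ones in experiment 2. The U2AF1 log2 fold change with the block was 0.04 (SE 0.06), with a 95% interval of 93.7% to 113% of the non-targeting level. The partner that binds the pyrimidine tract, U2AF2, stood at 523 and 525 CPM without and at 546 and 521 CPM with a ZRSR2 guide in experiment 1. In experiment 2 the U2AF2 values were 396 and 329 CPM without and 359.9 and 389.5 CPM with a ZRSR2 guide. The KO values of U2AF2 lay within or next to the non-targeting range in both experiments, and its blocked log2 fold change was 0.04 (SE 0.07, interval 92.3% to 114%). U2AF1L4, which is related to U2AF1 and can pair with U2AF2, stood at 22.3 and 19.7 CPM without and 21.7 and 20.4 CPM with a ZRSR2 guide in experiment 1. In experiment 2 it stood at 28.97 and 21.9 CPM without and at 25.9 and 24.3 CPM with one. Both KO values of U2AF1L4 fell between the non-targeting values in each experiment, and its log2 fold change was −0.01 (SE 0.10, interval 85.6% to 115%).

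At the branch point, SF1, the protein that first binds it, stood at 600.3 and 602 CPM in the non-targeting libraries and 608 and 564 CPM in the KO libraries of experiment 1. In experiment 2, SF1 stood at 402 and 339 CPM in the non-targeting libraries and at 352 and 411 CPM in the KO libraries. No order of genotypes was seen, and the blocked log2 fold change was 0.00 (SE 0.08, interval 89.4% to 112%). SF3B1, the subunit of the U2 particle that holds the branch point, stood at 381 and 377 CPM without and 376 and 398 CPM with a ZRSR2 guide in experiment 1. In experiment 2, SF3B1 stood at 399.6 and 539 CPM without and 476 and 428 CPM with a ZRSR2 guide. Non-targeting replicate 4 was the highest of all 8 libraries, and the KO values lay below it and above the other control of that experiment. The SF3B1 log2 fold change with the block was −0.01 (SE 0.09, interval 87.0% to 113%).

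SRSF2, the exon-binding SR protein, stood at 435 and 443 CPM in the non-targeting libraries and at 423 and 399 CPM in the KO libraries of experiment 1. In experiment 2 it stood at 236 and 198 CPM in the non-targeting libraries and at 234 and 239 CPM in the KO libraries. Both KO libraries were the lower ones in experiment 1 and genotypes overlapped in experiment 2, and the blocked log2 fold change was 0.01 (SE 0.07, interval 90.3% to 113%). LUC7L2, the U1-associated factor, stood at 13.0 and 14.1 CPM without and 11.7 and 11.7 CPM with a ZRSR2 guide in experiment 1. In experiment 2, LUC7L2 stood at 11.2 and 10.7 CPM without and 10.8 and 11.8 CPM with a ZRSR2 guide. The KO libraries were lower in experiment 1 alone, where the LUC7L2 log2 fold change was −0.21 (SE 0.13, unadjusted p 0.139), and over both experiments it was −0.08 (SE 0.10, interval 81.7% to 109%). PRPF8, at the catalytic centre, stood at 958 and 917 CPM without and 960.4 and 1006 CPM with a ZRSR2 guide in experiment 1. In experiment 2, PRPF8 stood at 867 and 752 CPM without and 792 and 961 CPM with a ZRSR2 guide. Guide 2 libraries of PRPF8 were the highest of their experiment in both experiments. The blocked log2 fold change of PRPF8 was 0.09 (SE 0.07, interval 95.2% to 119%), and for guide 2 alone 0.18 with an unadjusted p of 0.0692 and an adjusted p of 1.00.

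DDX41, the helicase, was the one gene besides ZRSR2 whose KO libraries all lay below all non-targeting libraries, but it passed no adjusted threshold. In the non-targeting libraries DDX41 stood at 109.6 and 106 CPM in experiment 1 and at 107 and 131 CPM in experiment 2. With ZRSR2 guides it stood at 96.7 and 95.8 CPM in experiment 1 and at 92.9 and 102 CPM in experiment 2. The narrowest gap was between 102 and 106 CPM. Genes lower in KO without overlap were 56 of 14898 (0.376%), and 2 of the 10 splicing factors, ZRSR2 itself and DDX41, were among them. The DDX41 log2 fold change was −0.23 (SE 0.09, unadjusted p 0.0369, adjusted p 1.00) in edgeR's test with genotype alone. With the block it was −0.23 (SE 0.08, unadjusted p 0.0114, adjusted p 0.894), where 4.63% of genes had an unadjusted p under 0.05, and DESeq2 with the block gave an adjusted p of 0.620. Without non-targeting replicate 4, the highest library, the value was −0.14 in edgeR's fits without and with the block, with an unadjusted p of 0.0913 and 0.0319. DDX41 was at −0.17 (SE 0.11) in experiment 1 and −0.29 (SE 0.11) in experiment 2. With the block it was at −0.26 (SE 0.10) for guide 1 and −0.20 (SE 0.10) for guide 2, and the guides differed by 0.06 (SE 0.12, adjusted p 1.00).

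**Figure D2:**
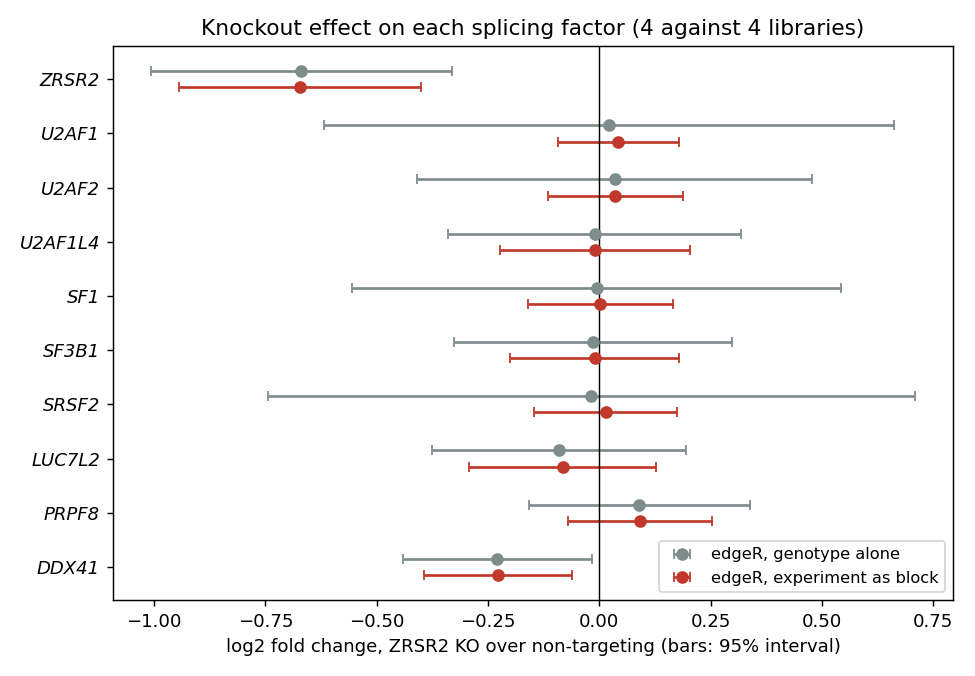
Log2 fold change of each splicing factor, ZRSR2 KO over non-targeting (4 against 4 libraries), with 95% intervals from edgeR's test with genotype alone (grey) and with the experiment as a block (red). The intervals of ZRSR2 and DDX41 lie below 0 in both fits, unadjusted for the number of genes, and those of the other 8 genes span 0.

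**Figure D3:**
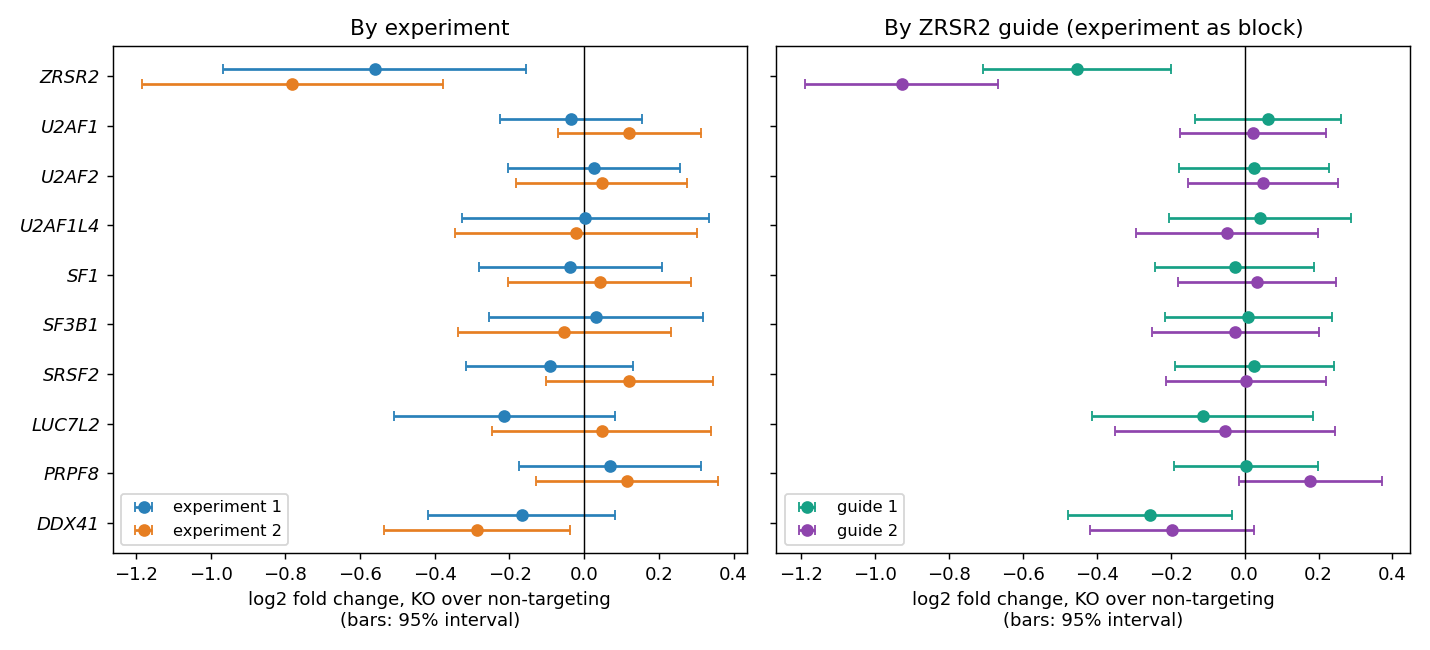
The same log2 fold change by experiment (left) and by ZRSR2 guide with the experiment as a block (right), with unadjusted 95% intervals from edgeR; each point compares 2 KO libraries with 2 non-targeting libraries (left) or with 4 (right). ZRSR2 is at −0.56 and −0.78 in the experiments and at −0.45 and −0.93 for the guides, while the other 9 genes lie between −0.29 and 0.18.

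For the 8 genes other than ZRSR2 and DDX41 the blocked log2 fold changes ran from −0.08 to 0.09, and the smallest unadjusted p was 0.244. Their 95% intervals together spanned 81.7% to 119% of the non-targeting level with the block, and 59.7% to 164% with genotype alone. Within experiment 2 the genes nearest to an upward difference were U2AF1 and SRSF2, each at 0.12 on the log2 scale, with unadjusted p of 0.190 and 0.261, and PRPF8 at 0.11 (unadjusted p 0.323). The difference of the genotype effect between experiments ran from −0.09 to 0.26 over these 8 genes, with a smallest unadjusted p of 0.166.

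Partner genes of the same machinery gave no call for genotype either, with or without the block in edgeR's test. Both of these fits called 0 of all 14898 tested genes (0%). The list counts could therefore only be 0 and show nothing particular to the partners. Over 9 lists the number called was 0 of 12 proteins of the U2 particle and 0 of 13 other 3′ splice site and branch point proteins. It was 0 of 14 SR proteins, 0 of 6 SR protein kinases and 0 of 11 U1, LUC7 family and other RNA-binding proteins. It was also 0 of 16 U5 and tri-snRNP proteins and 0 of 15 late-step factors. The last lists gave 0 of 12 minor spliceosome proteins and 0 of 14 factors of nonsense-mediated decay. List medians of the blocked log2 fold change ran from −0.07 for the SR protein kinases to 0.03 for the minor spliceosome proteins, beside 0.00 for all tested genes. CLK3, a kinase of SR proteins, was at −0.20 (SE 0.08, unadjusted p 0.0381) and SNRNP48, a protein of the minor U11/U12 particle, at 0.24 (SE 0.10, unadjusted p 0.0253). Both were named after their values were seen, as the genes of these 9 lists with an unadjusted p under 0.05 in the blocked fit, and both had an adjusted p of 1.00.

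Between the experiments 6 of the 10 genes were called, a share close to the 58.2% called among all tested genes. That count therefore shows nothing particular to the splicing factors. Experiment 2 had less mRNA of U2AF1, U2AF2, SF1 and SRSF2 (4 of 10, background 28.6% lower), and more of SF3B1 and U2AF1L4 (2 of 10, background 29.6% higher). SRSF2 fell from 425 ± 18.8 CPM to 227 ± 19.2 CPM (SD, n = 4 each), and U2AF1 from 782 ± 32.3 CPM to 450.02 ± 22.7 CPM. The log2 fold changes in edgeR's test were −0.91 (SE 0.07, adjusted p 3.94e-06) for SRSF2 and −0.80 (SE 0.06, adjusted p 3.21e-06) for U2AF1. SF1 was at −0.66 (SE 0.08, adjusted p 4.99e-05) and U2AF2 at −0.52 (SE 0.07, adjusted p 1.53e-04). For these 4 genes all experiment 2 libraries lay below all experiment 1 libraries, and the calls held in the 8 fits that leave out 1 library each. Experiments did not overlap for 5 of the 10 genes, the fifth being SF3B1, where 56% of all genes did not overlap. The day of collection, the culture and the sequencing of each experiment cannot be told apart here.

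The upward calls were weaker. SF3B1 was at 0.27 (SE 0.09, adjusted p 0.0270), and the call was lost in 6 of 8 fits that leave out a library, those without non-targeting replicates 1, 2 or 4 or KO replicates 1, 2 or 3. There the SF3B1 adjusted p lay between 0.0534 and 0.0977, and without non-targeting replicate 4 the value was 0.15. U2AF1L4 was at 0.27 (SE 0.10, adjusted p 0.0472), and its libraries overlapped between experiments. Its call was lost in 7 of 8 such fits, all but the one without non-targeting replicate 4, with adjusted p from 0.0642 to 0.176 and a value of 0.16 without non-targeting replicate 3. The other 4 genes gave no call: ZRSR2 was at −0.04 (SE 0.13, adjusted p 0.793), LUC7L2 at −0.18 (SE 0.09, adjusted p 0.132), PRPF8 at −0.19 (SE 0.08, adjusted p 0.0582) and DDX41 at 0.08 (SE 0.08, adjusted p 0.415). PRPF8 passed when no count filter was used (adjusted p 0.0287), without non-targeting replicate 3 (0.0190) and without KO replicate 4 (0.0166). DDX41 was at 0.15 (adjusted p 0.0479) without non-targeting replicate 3 and at −0.00 (adjusted p 0.981) without non-targeting replicate 4.

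The counts of the partner lists between the experiments are read beside all tested genes, of which 28.6% were called lower, 29.6% higher and 58.2% in all, and differences between lists were not tested. Among SR proteins, 8 of 14 were called lower and 1 higher, with a list median of −0.40, beside 0.00 for all tested genes. SRSF1 was at −1.04 (SE 0.06, adjusted p 8.22e-07) and TRA2B at −0.72 (SE 0.06, adjusted p 8.49e-06), both exon-binding relatives of SRSF2. Of the 3′ splice site and branch point partners 7 of 13 were called lower and 1 higher (median −0.24), with the RNA helicase DDX39A at −0.98 and PRPF40B at 0.87. In the U2 particle 5 of 12 were called lower and 0 higher (median −0.16), with SF3B4 at −0.83 and PHF5A at −0.63, both in the same subcomplex as SF3B1. SR protein kinases had 4 of 6 called higher and 0 lower (median 0.33), with CLK3 and CLK4 both at 0.51. The call for CLK4 was lost without non-targeting replicate 2, at an adjusted p of 0.0519.

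Of the U5 and tri-snRNP proteins that surround PRPF8, 9 of 16 were called lower and 1 higher (median −0.21), with SNRNP40 at −0.85 and AAR2, which binds PRPF8 during its maturation, at −0.52. Late-step factors had 8 of 15 lower and 2 higher (median −0.20), with the helicase DDX5 at −0.74 and PRPF19 at −0.70. Minor spliceosome proteins, the setting of ZRSR2, had 4 of 12 lower and 2 higher (median −0.23), with TXNL4B at −0.86 and ARMC7 at −0.63. Factors of nonsense-mediated decay had 6 of 14 lower and 1 higher (median −0.16), with SMG5 at −0.67 and RBM8A at −0.63. The list of U1, LUC7 family and other RNA-binding proteins had 0 lower and 2 of 11 higher (median 0.11), SNRPA at 0.28 and RBM5 at 0.28. RBM5 is on that list as one of the other RNA-binding proteins. The RBM5 call was lost without non-targeting replicate 2 (adjusted p 0.0628) and without KO replicate 2 (0.0530). Megakaryocyte and erythroid markers also differed between experiments, with 5 of 14 called higher and 3 lower, among them GP6 at −1.87. The summed level of these 14 markers was 3235 to 3468 CPM in experiment 1 and 3354 to 4111 CPM in experiment 2. Most of it was ITGA2B, at a mean of 2338 CPM. Among the 6 markers of other cell types that could be tested, 2 were called higher and 0 lower, with EPCAM at 1.58. The summed level of all 12 such markers was 352 to 382 CPM in experiment 1 and 339.9 to 419.7 CPM in experiment 2. Most of that sum was LYZ, at a mean of 230.5 CPM, and PECAM1, at 124 CPM. The part of these markers in the splicing gene differences was not tested.

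**Figure D4:**
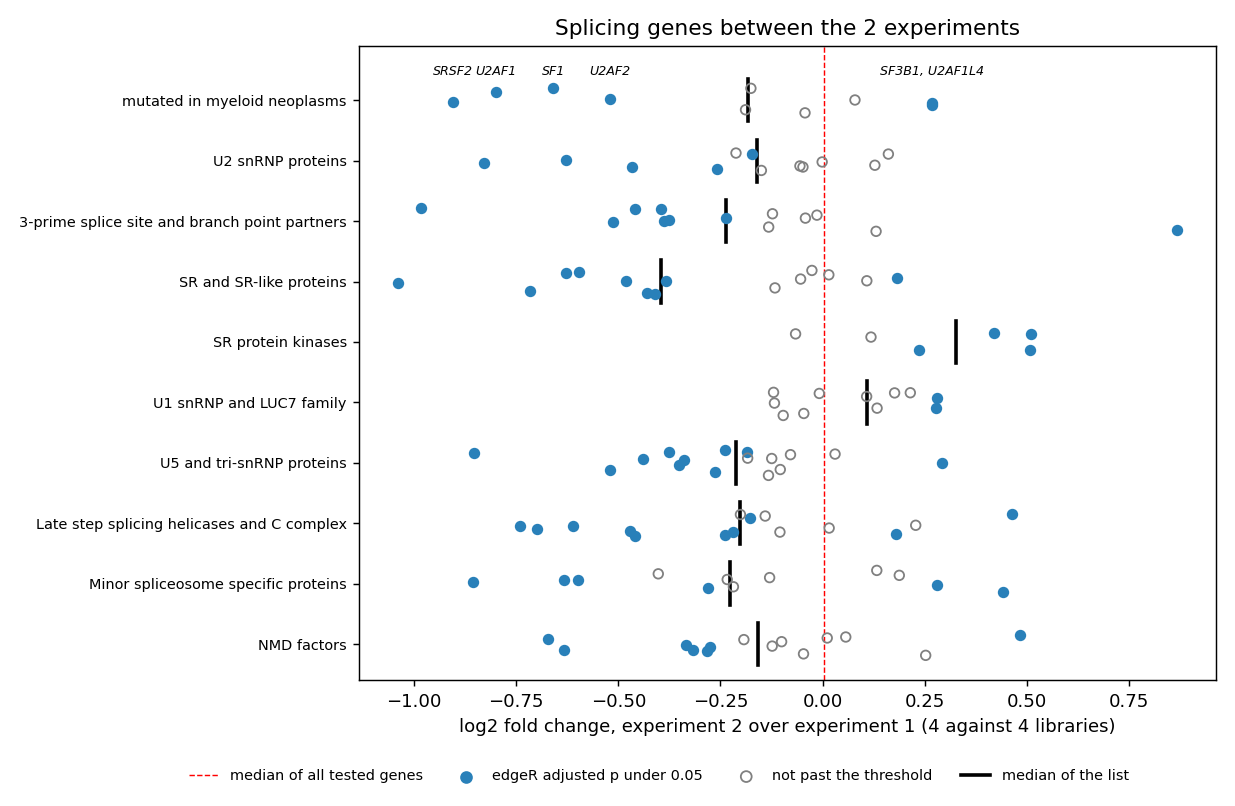
Log2 fold change of each tested gene, experiment 2 over experiment 1 (4 against 4 libraries, edgeR), by list; filled points have an adjusted p under 0.05, open points do not, black bars are list medians and the dashed line is the median of all tested genes. SRSF2, U2AF1, SF1 and U2AF2 lie between −0.91 and −0.52, and SF3B1 and U2AF1L4 at 0.27. Of the SR proteins 8 of 14 were called lower, beside 28.6% of all tested genes, and differences between lists were not tested.

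Levels of different genes were compared per kilobase of the GENCODE 29 transcript used for each. U2AF1 was the highest at a mean of 368 CPM per kilobase (254.7 to 483 over the 8 libraries), above all others. U2AF2 at 148, SF1 at 139.7, PRPF8 at 121 and SRSF2 at 113 CPM per kilobase overlapped one another over the libraries. SF3B1 followed at 64.6 (57.6 to 82.6), a range that reaches into that of SRSF2. DDX41 at 40.4 (35.6 to 50.3) was separate from its neighbours in this order. U2AF1L4 at 25.6 (21.8 to 32.0) and ZRSR2 at 21.6 (12.5 to 27.6) CPM per kilobase overlapped, and LUC7L2 was the lowest at 4.49 (4.06 to 5.31). These values depend on the transcript whose length was used.

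Some counts may be shared with neighbouring or similar genes. The read-through gene C7orf55-LUC7L2 is listed at 0 in every library and C7orf55 averaged 0.358 CPM, so that the level of LUC7L2 may depend on how reads were assigned among overlapping models. SRSF8, a gene closely similar to SRSF2, averaged 49.6 CPM and was at −0.88 between the experiments (SE 0.08, adjusted p 7.25e-06) and at 0.05 (SE 0.07) between genotypes with the block. MFSD11, on the opposite strand of SRSF2, was at 0.03 between the experiments (adjusted p 0.799). Next to U2AF1L4, PSENEN was at −0.32 (adjusted p 0.0136), IGFLR1 at −0.58 (adjusted p 0.00351) and KMT2B at −0.26 (adjusted p 0.0245) between the experiments, opposite in sign to U2AF1L4. The close copies ZRSR2P1 and U2AF1L5 were not matched to a symbol and are not analysed here, so the counts of ZRSR2 and U2AF1 may hold or lack reads that fit these copies.

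The genes whose log2 CPM was most like that of ZRSR2 over the 8 libraries, among 11013 genes with a mean of at least 5 CPM, were PFDN5 (Pearson r 0.97), AURKA (0.91) and VPS11 (0.91). Among the most opposite were DYNC1LI2 and KIAA0556, each at −0.95. The 8 libraries share 4 guides and 2 experiments, and these genes were picked as extremes, so the values only describe them. Among the splicing factors, r with ZRSR2 was 0.62 for DDX41, −0.48 for PRPF8 and between −0.03 and 0.17 for the other 7. PFDN5, a subunit of the prefoldin chaperone, stood at 134 and 108 CPM in the KO libraries of experiment 1 and at 129.6 and 94.4 CPM in those of experiment 2. In the non-targeting libraries PFDN5 stood at 142 and 146 CPM and at 164 and 149 CPM, so that its groups did not overlap and guide 2 was the lower one in both experiments, as for ZRSR2.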

How the data were processed

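RNA-seq libraries were made from 200 ng of total RNA using a Roche Kapa mRNA HyperPrep kit, per the labels' protocols. The authors deposited expected counts per gene symbol. Per the submitters' processing notes, cutadapt 1.11, RSEM 1.2.30 and the build hg19 were used; annotation and use of strand are not given in the sources used here. The deposited values were whole numbers, so rounding changed none, and 0 columns belonged to other samples.

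The edgeR filter (filterByExpr on genotype, minimum count 10) kept 14898 genes. TMM scaling and edgeR's quasi-likelihood test followed, p-values being adjusted by Benjamini and Hochberg's method across the 14898 genes, with calls at 0.05. The main design had genotype alone over 8 libraries; effects within and between experiments came from 1 fit with genotype by experiment, and guides from 1 fit with 4 guides. Standard errors come from the F statistic. Alternatives were the experiment as a block, DESeq2, its size factors, other count filters, and leaving out each library. Intervals cover 95%. Only edgeR's genotype fits without and with the block were run on simulated counts, and the outcome is not reported here. The guide fits, the fit with genotype by experiment and DESeq2 were not run on them.

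The fits with the block and the fit with genotype by experiment took the experiment of each library into account. The main genotype and guide fits left the experiment out. Deviations from genotype means correlated at 0.678 to 0.846 in the 8 KO and non-targeting pairs of the same experiment. In the 8 pairs of different experiments they correlated at −0.816 to −0.709. Centring each genotype on its own mean ties these ranges to each other, so the negative one adds no separate information. The biological coefficient of variation was 0.290 without and 0.108 with the block. No libraries agreed within sampling noise (over 28 pairs, chi-square was at least 2.99 times its degrees of freedom).

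The 10 genes and the lists were chosen with earlier results of these data known. Named beyond the 10 are, from each list, up to 2 genes with the largest change between experiments past the threshold and a mean of at least 5 CPM, any gene called for genotype, the genes that may share reads, and the 3 genes most and least like ZRSR2 in log2 CPM (prior count 2). Some genes that this rule names are not reported here. Gene positions and guide matches are from GENCODE 29 on GRCh38, a different build from the authors'. Counting precision is limited by reads without molecular identifiers. Software was R 4.3.3, edgeR 4.0.16, limma 3.58.1, DESeq2 1.42.0 and matplotlib 3.10.9.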

Additional observations from a re-analysis of the deposited data

Results flagged for a closer look

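In 4 of 22 groups of 4 libraries, 1 library lay far from the other 3 relative to the group's range. For independent groups of like libraries, a rate of 1 in 20 gives about 1.1 of 22. Each group here mixes both experiments and both guides, and all groups reuse the same 8 libraries. That rate need not hold for them, so no conclusion is drawn from the count. Non-targeting replicate 4 stood apart for SF3B1, at 539 CPM beside 377 to 399.6 CPM, and for DDX41, at 131 CPM beside 106 to 109.6 CPM. KO replicate 3 stood apart for LUC7L2, at 10.8 CPM beside 11.7 to 11.8 CPM. The total of non-targeting replicate 3 was 71521173 expected counts, beside 31106042 to 36544665 in the other non-targeting libraries.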

How the results depend on the processing

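Of 764 alternative values for 63 results, 660 kept their direction and their side of the threshold, or a count within 1.5 times. The cause of the other changes was not tested. With the experiment as a replicate block, edgeR's log2 fold change for genotype turned from −0.01 to 0.00235 for SF1 and from −0.02 to 0.0139 for SRSF2, and DESeq2 with the block gave 0.00059 and 0.0119. SF1 was at 0.0011 with no count filter. Leaving out 1 library at a time, in edgeR's fits without and with the block, gave −0.13 to 0.19 for U2AF1, −0.0732 to 0.13 for U2AF2, −0.0795 to 0.12 for U2AF1L4, −0.13 to 0.12 for SF1, −0.0844 to 0.13 for SF3B1 and −0.19 to 0.16 for SRSF2, all crossing 0. For experiment 2 against 1 it gave −0.20 to 0.0926 for ZRSR2 and −0.0018 to 0.15 for DDX41.

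The number of genes called for genotype, 0 in edgeR's test with and without the block, was 4 with DESeq2 and 31 with DESeq2 and the block. Leaving out libraries gave 0 to 119, the highest without non-targeting replicate 3 in DESeq2 with the block, a set of fits added after seeing the data. Within experiment 1 the count went from 0 to 5 with DESeq2 and 40 with no count filter, and within experiment 2 from 0 to 13 and 116, ZRSR2 being among both. The difference between experiments went from 0 to 5 with no count filter. For guide 2 the count went from 0 to 10 with the block, 2 with DESeq2 and 39 with DESeq2 and the block. DESeq2 with the block, also added after seeing the data for guides, gave 4 for guide 1 and 2 for guide 2 against guide 1. Apart from guide 2 the block changed no edgeR call on the 10 genes. The precision is limited by 4 libraries per genotype and 2 per guide.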
